A study of Bombus terrestris with 8 samples.

Results

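Open chromatin of worker eggs was compared with that of worker pupae in the buff-tailed bumblebee, *Bombus terrestris*. The comparison rests on 4 ATAC-seq peak lists, from egg replicates 1 and 2 and pupa replicates 1 and 2. Peak intervals of the 4 lists that overlapped by 1 bp or more were merged, which gave 56746 regions. A region with a peak in all 4 lists was called kept, a region with a peak in both eggs and no pupa was called egg side, and a region with a peak in both pupae and no egg was called pupa side. There were 15500 kept, 2520 egg side and 6323 pupa side regions, 24343 of the 56746 in all. The other 32403 had a peak in 1 list, in 1 egg and 1 pupa, or in 3 lists.

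The series covers 4 stages of worker bees from commercial colonies, each with 2 samples, which makes 8. Each egg or pupa sample was a pool of whole eggs or whole pupae with about the volume of an adult worker, so the replicates of both stages are pools of animals. The pupae were taken after eye colour had appeared and before the wings had formed. The sample titles and the paper name no treatment, strain or genotype for either group, and do not give the colony of each pool. The lists hold positions and no genes, so the stage labels could not be checked against marker genes.

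In ATAC-seq a transposase inserts sequencing adaptors into DNA that is not packed in nucleosomes, and places with many insertions are read as open chromatin. Promoters, enhancers and other regulatory DNA are typically open in the cells that use them. Bumblebees are holometabolous insects. The egg holds the embryo, in which the body plan and the larval organs form, and in the pupa most larval tissue is broken down while adult organs such as eyes, legs, wings and the adult brain are built. A whole animal mixes many cell types, so fewer cells with an open site and less opening per cell cannot be told apart.

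A value called fold enrichment is used throughout. It is the number of tags (mapped ends of reads) in 200 bp at the summit of a peak, divided by the number expected there from the background of the same library, with 1 added to both. The deposited values fix the tags and the background as well, so the depth behind each peak could be recovered. The peak caller used 7329332 tags in egg replicate 1, 8356975 in egg replicate 2, 10556560 in pupa replicate 1 and 16325187 in pupa replicate 2. These are the tags that entered peak calling, not the reads sequenced or mapped, whose order over the samples can be another. By this measure both pupae were deeper than both eggs, and the number of tags and the stage cannot be told apart with 2 samples each. The weakest listed summit held 15 and 16 tags in the eggs and 19 and 26 in the pupae. The absence of a peak means that a site did not pass the q-value threshold in that library, not that it was closed.

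Most regions present in both libraries of a stage were also present at the other stage, and pupa side regions outnumbered egg side regions. Kept regions made up 27.3% of all merged regions, pupa side regions 11.1% and egg side regions 4.44%. There were 2.51 pupa side regions for each egg side region. Of the patterns of 3 lists, the most frequent was egg replicate 1 with both pupae (3513 regions), followed by egg replicate 2 with both pupae (1809). Both eggs with pupa replicate 1 (1108) and both eggs with pupa replicate 2 (1029) came next. Egg replicate 1 was joined by pupa replicate 1 alone in 1107 regions and by pupa replicate 2 alone in 1001. Egg replicate 2 was joined by pupa replicate 1 alone in 261 and by pupa replicate 2 alone in 1544. Regions of a single list were numerous, with 6752 for egg replicate 1, 5580 for egg replicate 2, 2485 for pupa replicate 1 and 6214 for pupa replicate 2. These counts describe 1 set of lists and have no replicate error of their own.

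**Figure D1:**
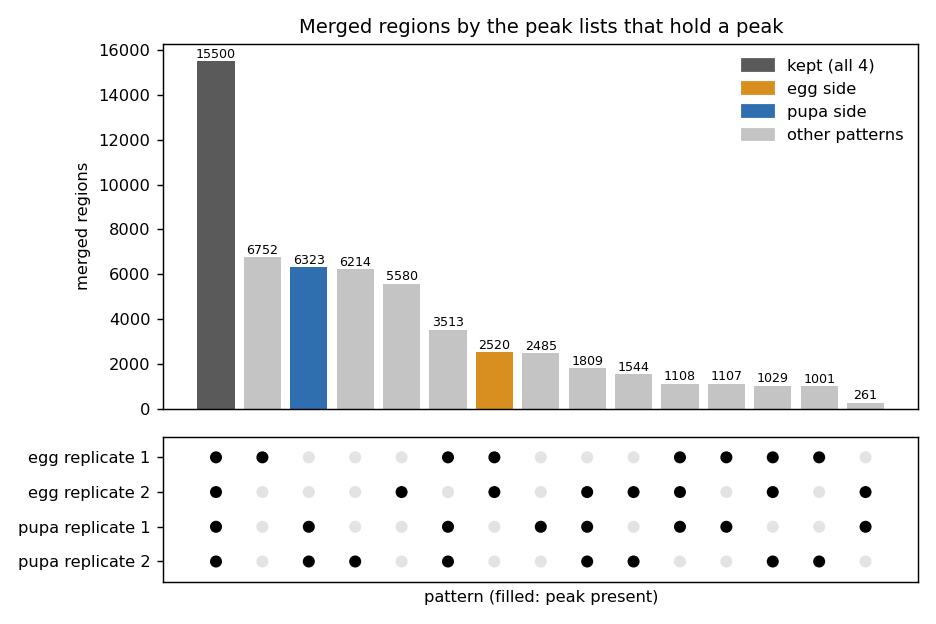
Number of merged regions (vertical axis) for each pattern of presence across the 4 peak lists, with filled dots below a bar marking the lists that hold a peak. The kept pattern (15500) is the most frequent, and the pupa side bar (6323) stands above the egg side bar (2520).

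The excess of pupa side regions came with a difference in how far the replicates shared peaks. Of 14852 regions with a peak in at least 1 egg and in no pupa, 2520 had it in both eggs, or 17.0% (95% exact Clopper-Pearson interval 16.4 to 17.6%, for counting error only). Of 15022 regions with a peak in at least 1 pupa and in no egg, 6323 had it in both pupae, or 42.1% (41.3 to 42.9%). The pools of candidate regions were thus of nearly the same size on both sides, and the share seen in both replicates was not. The same held among regions open in both libraries of the other stage. With both pupae present, 20822 regions had an egg peak and 74.4% of them had both. With both eggs present, 17637 regions had a pupa peak and 87.9% of them had both.

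Taken alone, each egg list differed from the pupae in both directions. Egg replicate 1 had a peak in 32530 regions, of which 19013 (58.4%) had a peak in both pupae, 4245 in 1 pupa and 9272 (28.5%) in none. Egg replicate 2 had a peak in 29351 regions, of which 17309 (59.0%) had a peak in both pupae, 3942 in 1 pupa and 8100 (27.6%) in none. Of the 27145 regions open in both pupae, 8132 (29.96%) had no peak in egg replicate 1 and 9836 (36.2%) had none in egg replicate 2. Against both pupae together, egg replicate 1 therefore had more regions without any pupa peak (9272) than it lacked regions of both pupae (8132), and for egg replicate 2 the order was the reverse. With equal numbers of intervals per list, both eggs had more regions without a pupa peak than they lacked, with 8751 against 6879 for egg replicate 1 and 9159 against 7429 for egg replicate 2. The order for egg replicate 2 thus turned with the number of intervals. The 2 counts are unlike, since one asks for no peak in either pupa and the other for a peak in both. Against pupa replicate 2 alone, egg replicates 1 and 2 had 11539 and 9505 regions without its peak and lacked 16025 and 17187 of its regions. Against pupa replicate 1 alone they had 11404 and 10904 and lacked 11215 and 13756.

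With equal numbers of peaks per list, pupa side regions still outnumbered egg side regions, and the ratio depended on the number taken. With the 30268 intervals of highest −log10 p taken from each list, 14163 regions were kept, 2746 were egg side and 5041 were pupa side, a ratio of 1.84. The share of candidate regions seen in both replicates was then 18.1% for the egg (2746 of 15164) and 43.2% for the pupa (5041 of 11672). With the 10000 top intervals of each list there were 482 egg side and 1274 pupa side regions. That ratio was 2.64, against 2.51 for all listed intervals. When the tags at every summit were scaled down to the depth of egg replicate 1 and the threshold was applied again, there were 15280 kept, 2616 egg side and 5985 pupa side regions. Among peaks with −log10 p above 20, the ratio was higher, with 445 egg side and 2105 pupa side regions. Leaving out 1 egg list mattered most, since the egg side then asks for 1 list and the pupa side for 2. There were 8162 egg side and 9856 pupa side regions without egg replicate 1, and 9348 and 8166 without egg replicate 2, where the egg side was the larger. Without pupa replicate 1 the counts were 3637 and 12665, and without pupa replicate 2 they were 3586 and 9093.

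**Figure D2:**
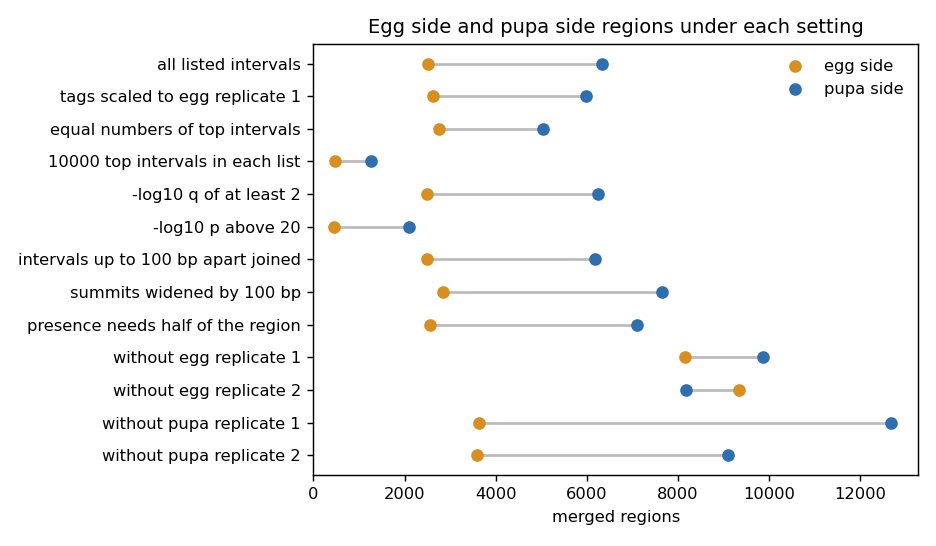
Number of egg side (orange) and pupa side (blue) merged regions, on the horizontal axis, for all listed intervals and for each other setting named on the vertical axis. The pupa side count is the higher in each setting shown except without egg replicate 2, where it is 8166 against 9348.

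In base pairs, the lists of the pupae overlapped the most, and those of the eggs about as much as egg replicate 1 with pupa replicate 1. The Jaccard index, the share of covered base pairs that both lists of a pair cover, was 0.476 for the eggs and 0.609 for the pupae. Between the stages it was 0.479 for egg replicate 1 with pupa replicate 1, 0.404 for egg replicate 1 with pupa replicate 2, 0.438 for egg replicate 2 with pupa replicate 1 and 0.421 for egg replicate 2 with pupa replicate 2. For egg replicate 2 the other egg was the closest list, and for egg replicate 1 it was level with pupa replicate 1. The mean was 0.543 within and 0.436 between the stages, a gap of 0.107. The gap was 0.119 on placed chromosomes, 0.0503 on unplaced contigs, 0.0542 with the 10000 top intervals of each list and 0.0646 with −log10 p above 20. The exact one-sided permutation test over the 3 ways to pair 4 samples gave p = 0.333, which is the smallest value this design allows.

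Placed chromosomes and unplaced contigs of the Bter_1.0 assembly gave different pictures. On the 18 placed chromosomes, 11519 of 47287 regions were kept (24.4%), 2164 were egg side (4.58%) and 5744 were pupa side (12.1%), or 2.65 pupa side regions for each egg side region. On unplaced contigs, 3981 of 9459 regions were kept (42.1%), 356 were egg side (3.76%) and 579 were pupa side (6.12%), a ratio of 1.63. Of its regions on placed chromosomes, egg replicate 1 had no pupa peak in 7913 (30.9%) and egg replicate 2 in 7131 (30.7%). On unplaced contigs the same shares were 19.7% (1359) and 15.8% (969). Of the 22000 placed regions open in both pupae, 7345 (33.4%) lacked a peak in egg replicate 1 and 8880 (40.4%) lacked one in egg replicate 2. Of the 5145 unplaced ones, 787 (15.3%) and 956 (18.6%) did.

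Many kept regions of unplaced contigs began at the first base of the contig. This was so for 1591 of the 3981 (39.96%), against 15 of the 356 egg side regions and 0 of the 579 pupa side regions on unplaced contigs, which allows a share of up to 0.635%. These contig-end regions had a median fold enrichment of 13.4 and 10.5 in the eggs and 10.3 and 5.48 in pupae 1 and 2. Kept regions on placed chromosomes had medians of 5.03 and 4.85 in the eggs and 4.60 and 4.36 in the pupae, so the 4 libraries were close to each other there. Pupa replicate 2 stood apart on unplaced contigs, with a median of 4.55 against 6.80 to 8.52 in the other 3. Because the authors kept up to 200 alignments per read, tags of repeated sequence can be counted at several places. The part of this in the values of unplaced contigs was not tested, and positions below are therefore given apart for the placed and unplaced sets.

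Egg side and pupa side regions were narrower and weaker than kept regions and resembled each other in form. The sorting rule itself favours the contrast with kept regions. A kept region joins intervals of 4 lists and a side region those of 2, and a weak site is more easily missed in a list. Shares that ask for each library likewise ask for 4 libraries in kept regions and for 2 on a side. The median width was 382.5 bp for the egg side, 388 bp for the pupa side and 633 bp for kept regions. A single summit in each library was found in 88.0% of egg side, 84.4% of pupa side and 54.6% of kept regions. Egg side regions had a median fold enrichment of 3.48 and 3.41 in egg replicates 1 and 2, and pupa side regions of 2.996 and 2.93 in pupa replicates 1 and 2. In tags, this was a median of 31 and 35 at an egg side summit and of 35 and 57 at a pupa side summit. Kept regions had medians of 5.52, 5.29, 5.01 and 4.40 in egg replicates 1 and 2 and pupa replicates 1 and 2. A −log10 p above 20 in each library of the class was reached by 87 egg side regions (3.45%), 522 pupa side regions (8.26%) and 5980 kept regions (38.6%). A fold enrichment of at least 4 in each library was reached by 350 egg side regions (13.9%), 633 pupa side regions (10.01%) and 6668 kept regions (43.0%). The order of the sides thus differed between the measures, of which −log10 p rises with depth at a given fold enrichment.

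Strong regions were ranked by the fold enrichment of their weaker replicate. The strongest egg side region on a placed chromosome lay at 1834840–1835420 of NC_015778.1. Its summit held 66 tags at a fold enrichment of 8.64 in egg replicate 1 and 126 tags at 14.6 in the other egg. Neither pupa had a peak there, although the region was open in both larvae and both adults. The next was 7253471–7254207 of NC_015762.1, with fold enrichments of 8.51 and 8.73 from 65 and 75 tags and peaks again in all 4 larva and adult lists. At 2709027–2709661 of NC_015779.1 the values were 10.6 and 8.06 from 117 and 97 tags, with peaks in both larvae and in adult replicate 2. These 3 regions were thus open at every stage but the pupa, as far as the lists show.

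The other egg side regions at the top of this ranking were alike. On placed chromosomes they were 7765048–7765698 of NC_015766.1 (8.06 and 10.2), 783164–783766 of NC_015762.1 (7.95 and 8.01) and 7081161–7081779 of NC_015764.1 (7.54 and 8.42). On unplaced contigs they were 302334–303113 of NW_003566591.1 (8.51 and 8.16), 2117–2452 of NW_003565683.1 (6.45 and 9.08) and 249–542 of NW_003570554.1 (6.96 and 6.44). Of the 9 egg side regions named, 8 had a peak in at least 1 larva and at least 1 adult, and the exception, on NW_003570554.1, had neither.

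The strongest pupa side region lay at 13078221–13078818 of NC_015771.1, with 92 and 167 tags and fold enrichments of 8.67 and 9.81 in pupa replicates 1 and 2. It had a peak in both adults and in no larva. A second one followed 89730 bp further on the same chromosome, at 13168549–13169175 (8.11 and 8.66, from 86 and 138 tags), with a peak in adult replicate 1. At 6148953–6149657 of NC_015768.1 the fold enrichments were 8.75 and 8.54, and at 3485223–3485685 of NC_015771.1 they were 7.92 and 7.19. Both of these had peaks in both adults and in no larva.

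Chromosome NC_015773.1 held 2 of the named pupa side regions with unlike patterns at the other stages. The region 6583755–6584629 (8.02 and 8.48) had no larva or adult peak. The region 6086452–6087499 (9.11 and 7.11, with 2 summits in each pupa) had a peak in both larvae and both adults, so that only the eggs lacked it. On unplaced contigs the named regions were 384–977 of NW_003565856.1 (8.57 and 8.04), 188724–189485 of NW_003566457.1 (8.11 and 6.79) and 404130–404680 of NW_003566535.1 (8.79 and 6.31). The first 2 of these had peaks in both adults and in no larva, and the last had none at either stage.

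The strongest kept regions had nearly level values in all 4 libraries. At 1388319–1389312 of NC_015767.1 the fold enrichments were 15.9 and 14.2 in the eggs and 13.7 and 13.5 in the pupae. At 9732855–9733834 of NC_015769.1 they were 14.3 and 13.4 in the eggs and 14.3 and 13.5 in the pupae, from 358, 367, 334 and 369 tags. If a peak caller keeps 1 tag per position and strand, 200 bp hold at most 400 tags, and the highest pileup in the 4 lists was 382, so the highest values lie close to such a ceiling. The other placed regions of this set were 9392962–9394019 of NC_015764.1, between 13.2 and 14.6, and 14534901–14535694 of NC_015762.1, between 13.1 and 14.5. On unplaced contigs, 1–521 of NW_003568028.1 had 21.9 and 21.5 in the eggs and 22.3 and 21.5 in the pupae, and 1–554 of NW_003567957.1 had 23.4, 22.3, 20.9 and 19.5. Both start at the first base of their contig. All 6 had a peak in every larva and adult list.

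The larva and adult lists took no part in sorting the regions, and they separated the sides. A peak in at least 1 larva was found in 752 egg side regions (29.8%) and in 277 pupa side regions (4.38%), against 75.7% of kept regions and 29.9% of all merged regions. A peak in at least 1 adult was found in 1135 egg side regions (45.0%) and in 1993 pupa side regions (31.5%), against 90.1% of kept regions and 49.5% of all merged regions. Egg side regions were thus near the background for larvae and somewhat below it for adults, while pupa side regions were below it for both stages. In single lists, the share of egg side regions was 27.5% and 11.7% in larva replicates 1 and 2 and 32.5% and 39.96% in adult replicates 1 and 2. The share of pupa side regions was 2.67% and 2.39% in the larvae and 23.0% and 26.3% in the adults. The egg side share was the higher in each of the 4 lists. A peak in neither larva nor adult was the case for 4189 pupa side regions (66.3%), 1114 egg side regions (44.2%) and 953 kept regions (6.15%).

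Peaks shared with both replicates of another stage gave a sharper contrast. Both larvae had a peak in 234 egg side regions (9.29%) and in 43 pupa side regions (0.680%). Both adults had a peak in 691 egg side regions (27.4%) and in 1123 pupa side regions (17.8%). All 4 larva and adult lists had a peak in 122 egg side regions (4.84%) and in 18 pupa side regions (0.285%). Among kept regions these shares were 53.5% for both larvae, 82.4% for both adults and 51.3% for all 4 lists. Shares over all merged regions were not counted for these patterns. Regions with both adults and no larva were found at 13.7% of the egg side (346) and at 16.5% of the pupa side (1044). In this pattern the sides were close to each other and to kept regions (13.8%).

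**Figure D3:**
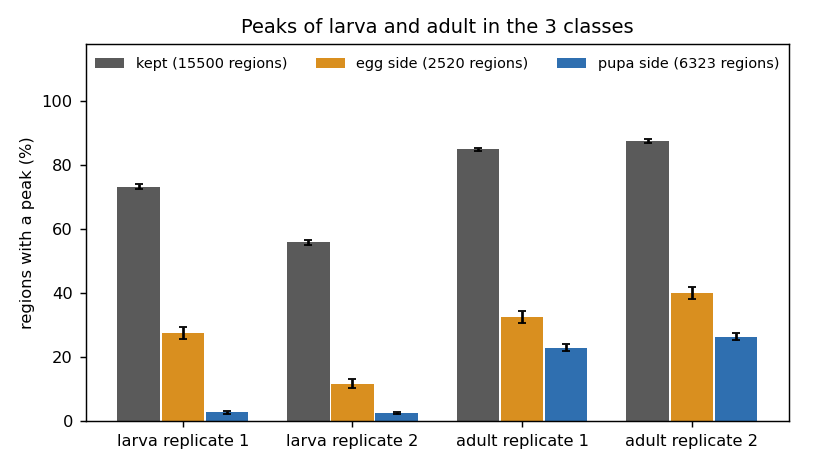
Percentage of kept, egg side and pupa side regions (vertical axis) with a peak in each larva and adult list, which were not used to sort the regions, with exact 95% intervals for counting error as bars. Egg side regions lie above pupa side regions in all 4 lists, with 27.5% against 2.67% in larva replicate 1, and kept regions lie above both.

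Between the sides, the difference in larval peaks was present in every range of −log10 p. This value rises with depth at a given fold enrichment. The pupae were deeper, so its ranges do not match the sides by fold enrichment. Egg side regions whose weaker egg replicate had a −log10 p below 5 had a larva peak in 21.0% of cases (518 regions), and the share was 23.6% from 5 to 10 (1331 regions), 45.9% from 10 to 20 (584 regions) and 70.1% from 20 upwards (87 regions). Pupa side regions sorted in the same way by the weaker pupa replicate had a larva peak in 4.78%, 3.54%, 4.36% and 8.05% of cases (1276, 2850, 1675 and 522 regions). The share thus rose with −log10 p on the egg side and stayed low in every range on the pupa side. For adult peaks the shares rose on both sides, from 35.7% to 64.4% on the egg side and from 27.7% to 45.0% on the pupa side. The larva lists come from 6959714 and 4722963 tags, fewer than any egg or pupa list, so weak larval peaks were less detectable than weak egg or pupa peaks. Regions found in a single list did not show the same contrast. A larva peak was present in 6.58% of regions found in egg replicate 1 alone and 12.0% of those in egg replicate 2 alone, against 6.48% and 1.27% for pupa replicates 1 and 2 alone. An adult peak was present in 14.5% and 33.9% for the eggs and in 21.9% and 17.7% for the pupae, so that egg replicate 1 lay below both pupae.

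Kept regions were compared by their fold enrichment, and their summits kept their place. Among 8468 kept regions with 1 summit in each library, the median distance between the summits of 2 libraries was 15 bp for the pupae, 18 bp for the eggs and 17 to 19 bp between the stages. Between 81.1% and 89.9% of summits lay within 50 bp of each other. Pearson's r of log2 fold enrichment across the 15500 kept regions was 0.747 for the eggs and 0.770 for the pupae. Across the stages it was 0.800 for egg replicate 1 with pupa replicate 1, 0.727 for egg replicate 2 with pupa replicate 1, and 0.569 and 0.675 for the eggs with pupa replicate 2. The order depended on the contigs. On placed chromosomes r was 0.636 for the eggs, 0.823 for the pupae and 0.601 to 0.699 across the stages. On unplaced contigs it was 0.845 for the eggs, 0.748 for the pupae and 0.568 to 0.876 across the stages. These are descriptions across regions, which are not independent and share the background of their library. A difference of more than 2-fold was seen in 5.35% of regions between the eggs, in 3.61% between the pupae, and in 3.77% to 10.99% between an egg and a pupa. The highest of these, egg replicate 1 with pupa replicate 2, rose to 26.6% on unplaced contigs.

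In the main fit over all kept regions, no region passed the test for a difference in fold enrichment between the stages. limma with Benjamini-Hochberg adjustment called 0 of 15500 regions higher in the pupa (0%) and 0 higher in the egg (0%), with a smallest adjusted p of 0.404. At an unadjusted limma p under 0.05 there were 858 regions higher in the pupa (5.54%) and 582 higher in the egg (3.75%). Both pupae lay above both eggs in 3057 regions (19.7%), both eggs lay above both pupae in 2975 (19.2%), and in 9468 the stages overlapped. The order turned with the contigs. The pupae were above in 2659 and the eggs in 1959 regions of placed chromosomes, against 398 and 1016 of unplaced contigs. With 2 samples on each side, such a separation is frequent also where nothing differs. Without pupa replicate 1 the limma test called 1 region higher in the pupa and 258 higher in the egg. With all 4 libraries, 7 regions were called higher in the pupa when only the 3989 regions with a genome-wide background in every sample were tested, and 3 when unplaced contigs were tested alone. On placed chromosomes alone, limma called no region, with a smallest adjusted p of 0.0895. With the replicate number as a block, limma called 182 regions higher in the pupa and 159 higher in the egg, but no label makes these numbers a batch.

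The widest separations on placed chromosomes are given as values. At 12821967–12822753 of NC_015771.1 the summit held 37 and 26 tags in the eggs and 143 and 185 in the pupae. The fold enrichments were 4.90 and 3.10 in the eggs and 13.4 and 11.6 in the pupae, a limma difference of 1.88 ± 0.27 (log2, SE) with an adjusted p of 0.404. At 10211044–10211743 of NC_015765.1 they were 3.61 and 2.64 in the eggs and 9.88 and 8.79 in the pupae, and at 9729301–9730021 of NC_015764.1 they were 4.26 and 2.07 against 9.44 and 8.43. In the other direction, 3120812–3121586 of NC_015773.1 had 9.22 and 7.59 in the eggs and 2.05 and 2.62 in the pupae, from 91, 92, 21 and 41 tags, a limma difference of −1.65 ± 0.30 (log2, SE) with an adjusted p of 0.404. The values were 8.35 and 8.53 against 3.08 and 1.93 at 541779–542396 of NC_015776.1, and 10.3 and 6.44 against 2.88 and 2.06 at 3076282–3077029 of NC_015775.1. These 6 regions were picked for stages that do not overlap. That choice fixes the sign in fits that leave out 1 library or add a block, so a stable sign there adds no support. The sign of the difference was the same under each alternative in which a region was tested, but the call was not. Among regions with a genome-wide background in every sample, the limma adjusted p was 0.00815 at the region of NC_015771.1 and 0.0196 at that of NC_015765.1, and over all alternatives the limma adjusted p of the 6 regions ranged from 0.00798 to 0.99967.

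**Figure D4:**
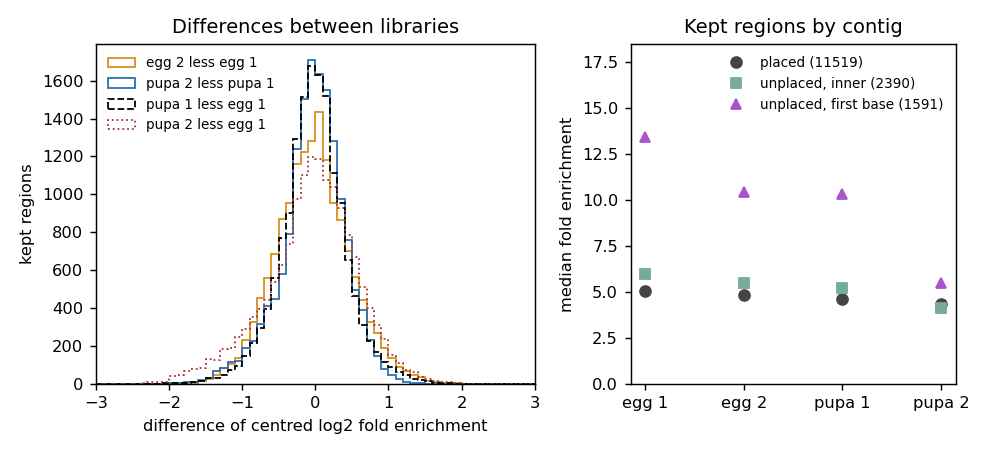
Left, the number of kept regions (vertical axis) by the difference of median-centred log2 fold enrichment (horizontal axis) for 4 pairs of libraries; right, the median fold enrichment of kept regions in each library, for placed chromosomes and for unplaced contigs away from and at the first base. The standard deviation is 0.509 between the eggs, 0.439 between the pupae, 0.445 for pupa 1 less egg 1 and 0.619 for pupa 2 less egg 1. At contig ends pupa replicate 2 (5.48) lies below the other 3 libraries (10.3 to 13.4).

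Fold enrichment is set against the surroundings of a peak, so a stretch that is open as a whole hides in it. The background that the peak caller took from the 10000 bp around a summit was therefore compared with the genome-wide level of its library, a comparison added after the data were seen. The caller uses the genome-wide level where the local value is lower, so a ratio of 1 means at or below it. Between 39.3% and 45.0% of kept regions were at this floor in each library. For kept regions the median ratio lay between 1.06 and 1.19 in the 4 libraries, and 1175 (7.58%) were at 2 times or more in all of them. At 17 of the 15500 kept regions (0.110%) both pupae had at least 2 times the ratio of both eggs, and at 6 (0.0387%) the eggs did so over the pupae. Around 3389595–3390391 of NC_015776.1 the ratio was at most 1.03 in the eggs and 2.78 and 3.007 in the pupae, whereas the fold enrichment itself was 5.29, 4.60, 4.46 and 5.26. Around 6438584–6439225 of NC_015774.1 the ratio was at most 1.02 in the eggs and 2.58 and 2.86 in the pupae. The reverse was found around 5614595–5615097 of NC_015768.1, with 3.16 and 2.73 in the eggs and 1.12 and 1.02 in the pupae. These places were picked for their ratio and are given as a description, with no test.

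Both sides lay in neighbourhoods of their own kind more often than their share of all placed regions. The next region along a chromosome was egg side for 7.53% of egg side regions, against 4.58% of all placed regions, and pupa side for 17.8% of pupa side regions, against 12.1%. For kept regions it was 31.4% against 24.4%. Runs were formed from kept, egg side and pupa side regions alone, so regions of other patterns can lie within them. The longest run of egg side regions held 7 regions over 73973 bp, and the longest run of pupa side regions held 16 over 113169 bp. Of 2170 windows of 100000 bp with a region, 1000 (46.1%) had no egg side region and 450 (20.7%) had no pupa side region.

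The densest pupa side window was 11900001–12000000 of NC_015765.1, with 17 pupa side regions, 0 egg side regions, 3 kept regions and 14 regions of other patterns. Its pupa side members had fold enrichments of 1.52 to 6.26 in pupa replicate 1 and 1.46 to 5.42 in pupa replicate 2. Of the 17, 1 had a larva peak and 6 had an adult peak. The lowest fold enrichments came with the highest tag numbers. Within this window, 3 neighbouring regions between 11945914 and 11951208 held 96, 167 and 112 tags in pupa replicate 1 and 196, 247 and 230 in pupa replicate 2, at fold enrichments of only 1.46 to 2.35. The background around them was 6.41, 7.26 and 7.52 times the genome-wide level in pupa replicate 1 and 8.90, 9.54 and 9.99 times in pupa replicate 2, and the last of these was the highest of any pupa side region in each library.

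The middle one of these 3 regions, at 11946659–11949688, was 3030 bp wide. The 3 kept regions of the window give the background of all 4 libraries. At 11901164–11901594 and 11904088–11904591, near the start of the window, it was close to or below the genome-wide level in every library, with at most 1.08 and 1.13 times in pupa replicate 2. At 11958081–11958404, past the 3 regions above, it was at or below the genome-wide level in both eggs and at 2.11 and 4.08 times that level in the pupae. The summit there held 28 and 31 tags in the eggs and 79 and 158 in the pupae. The longest pupa side run, 11959934–12073102, starts just after this kept region. The other pupa side window, 10300001–10400000 of the same chromosome, held 16 pupa side, 0 egg side and 6 kept regions and 16 regions of other patterns. Of its pupa side regions, 0 were open in a larva and 1 was open in an adult.

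The densest egg side windows held 9 egg side regions each. The window 700001–800000 of NC_015762.1 had 9 egg side, 0 pupa side and 1 kept region and 14 regions of other patterns. It holds the longest egg side run, 712521–786493. Fold enrichments of its egg side members ranged between 2.11 and 8.77 in egg replicate 1 and between 2.18 and 8.01 in the other egg, and 4 of the 9 had a larva peak and 4 an adult peak. The window 100001–200000 of NC_015774.1 had 9 egg side, 6 pupa side and 8 kept regions and 14 regions of other patterns, so the sides were mixed there. Of its 9 egg side regions, 6 had a larva peak and 6 an adult peak. The background around egg side members reached 2.86 times the genome-wide level in these windows, and 4 of all 2520 egg side regions were at 4 times or more in both eggs.

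The balance of the sides varied along the assembly. The ratio of pupa side to egg side regions ranged from 1.11 on NC_015779.1 (73 against 66) to 3.63 on NC_015765.1 (439 against 121), with a median of 2.70 over the 18 chromosomes. The egg side share was highest on NC_015774.1 (7.16% of its regions) and NC_015779.1 (7.14%), against a median of 4.38%. With equal numbers of intervals per list, NC_015779.1 had more egg side than pupa side regions (78 against 60), and the ratio on NC_015778.1 was 1.05. The 3 chromosomes with the fewest regions, NC_015777.1, NC_015778.1 and NC_015779.1, had the lowest 3 ratios in both settings. The chromosomes are single molecules with no replicate, so their order is a description.

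**Figure D5:**
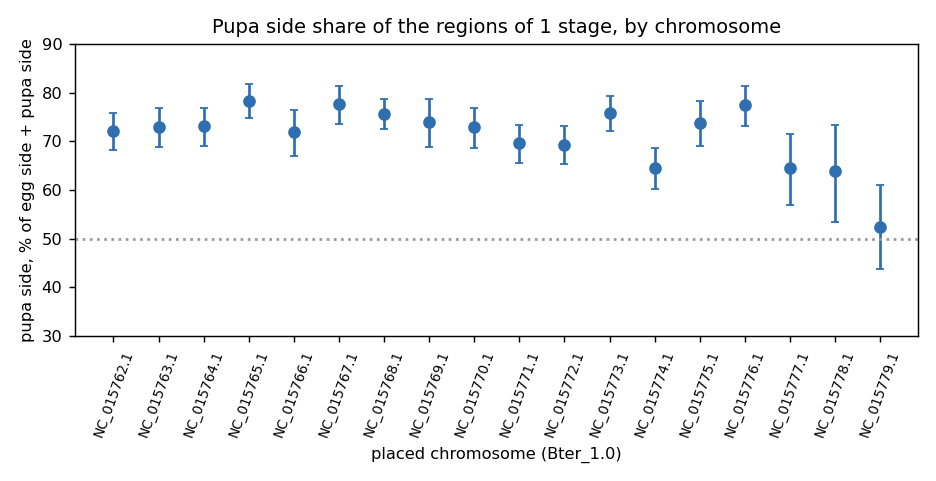
Pupa side regions as a percentage of egg side and pupa side regions together (vertical axis, from 30 to 90%) on each of the 18 placed chromosomes, with exact 95% intervals for counting error and a dotted line at 50%. The share is highest on NC_015765.1 (78.4%) and lowest on NC_015779.1 (52.5%), whose interval of 43.9 to 61.0% spans the line.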

How the data were processed

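ATAC-seq reads of egg, larva, pupa and adult samples (2 each) were filtered by the authors with SOAPnuke, aligned to Bter_1.0 with Bowtie2 2.2.5, keeping up to 200 alignments per read, and turned into peaks sample by sample with MACS2 2.2.5 (extension 200 bp, shift −100 bp, genome size 217000000 bp, no control named). The deposited fold enrichment is a ratio to the local background of the same library. The deposited −log10 p and −log10 q, and the score that the authors' caller takes from q, were not normalized between samples. The lowest −log10 q per list was 1.30 to 1.31.

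Fold enrichment and −log10 p together fix the whole number of tags at a summit. In the egg and pupa lists, 99.989 to 99.998% of summits matched within 0.0005, and the code was tested on simulated data. limma compared log2 fold enrichment of the best summit over kept regions, centred per sample on its median. Positions are 1-based in Bter_1.0. Regions were named by the highest value in the weakest library of the class (egg and pupa side: 6 placed and 3 unplaced; kept: 4 and 2; limma: 3 per direction without overlap between the stages; windows: 2 per side). The regions, lists and tests were chosen with earlier results of these data known. Genes, sequence motifs and read coverage were not analysed here. Python 3.11.15, scipy 1.17.1, pandas 2.3.3, R 4.3.3 and limma 3.58.1 were used.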

Additional observations from a re-analysis of the deposited data

How the results depend on the processing

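Of 284 alternative values, 235 kept their direction and call or stayed within 1.5 times. None turned direction at a named region, but the kept regions named by their difference were picked for stages that do not overlap. Their stable direction is therefore no support. In the order kept, egg side, pupa side, counts were 5041, 482 and 1274 with the 10000 top intervals of each list, 5981, 445 and 2105 with −log10 p above 20, 3981, 356 and 579 on unplaced contigs, and 3865, 319 and 601 there with equal numbers of intervals (6361). Without 1 replicate they ran from 16548 to 19052, 3586 to 9348 and 8166 to 12665. In the same 4 settings, regions of egg replicate 1 with no pupa peak numbered 2212, 1862, 1359 and 1027, and regions of both pupae without it 1810, 2963, 787 and 871. For egg replicate 2 these were 2237, 2318, 969 and 1004, and 1959, 2917, 956 and 879, the last of these kinds being 6432 on placed chromosomes with equal numbers. Without 1 pupa list, the egg lists had 11404 to 11539 and 9505 to 10904 regions with no pupa peak, and lacked 11215 to 16025 and 13756 to 17187 pupa regions. These subsets hold fewer intervals by construction. Scaling of tags, equal numbers by contig type, tags in place of fold enrichment, a pileup limit, unplaced contigs alone in limma and regions at the genome-wide background were chosen after seeing the data.

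The limma calls changed under a few settings: 3 regions were called higher in the pupa on unplaced contigs alone, 7 where the background was at the genome-wide level in every sample (3989 regions), and, without 1 replicate, 0 to 1 higher in the pupa and 0 to 258 higher in the egg. Without centring, the median difference of all kept regions moved from −0.03 to −0.24 (log2, pupa less egg) and no region was called. The lone sample of a stage in a fit without 1 replicate is assumed to vary like the others. The cause of these changes was not tested. Eggs and pupae share replicate numbers but no labelled batch. With the replicate number as a block, limma called 182 regions higher in the pupa and 159 higher in the egg, and the deviations of same-numbered samples had r = 0.37 across kept regions. All 6 kept regions named by their difference had an adjusted p between 0.00798 and 0.0230 in that limma fit. With 2 pairs this can neither show nor exclude a pairing, since the opposite pairing gives the same r with its sign turned.

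The 2 pools per stage, unequal depth, peak calls without a control and the use of repeated alignments limit all counts. Depth bounds detection from 15 tags in egg replicate 1 to 26 in pupa replicate 2.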
